A study of Mus musculus with 12 samples.

Results

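Glycolysis and hypoxia genes are described here as 31 genes of the mouse, read from a table of RNA-seq counts of the embryonic cortex. The members were a list of glycolytic enzymes, glucose and lactate transporters and genes of the HIF pathway, matched by gene symbol. The rule that lists them uses no measured value, but they were proposed with earlier results of these data known. All 31 were found among the 55335 genes of the table. No member differed between Med13l genotypes past the test used below, and for most members a change as large as 2-fold lay outside the 95% interval. The largest fold difference between KO and WT was that of Ndrg1, at 18.0 CPM in KO cortex, against 38.0 CPM in WT cortex. CPM is the count scaled to a common library size and composition. The member with the smallest p was Pfkm, at 93.7 CPM in KO cortex and 108 CPM in WT cortex.

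Glycolysis splits glucose into pyruvate and gives ATP without oxygen. When oxygen is scarce, pyruvate is turned into lactate and exported. The transcription factor HIF is a pair of proteins of which the alpha subunit, encoded by Hif1a, is marked for destruction by oxygen-dependent prolyl hydroxylases of the Egln family. In low oxygen the subunit is stable and HIF switches on most glycolytic enzymes, Vegfa and many other genes. Proliferating progenitors of the embryonic cortex are known to rely on glycolysis, and neurons shift towards oxidative metabolism as they mature.

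RNA had been isolated from the cortex of E13.5 embryos (days of gestation), bred by mating Med13l heterozygotes with each other. Med13l encodes a protein of the Mediator kinase module, which tunes transcription by RNA polymerase II. There were 3 homozygous knockout (KO), 3 heterozygous (Het) and 3 wild-type (WT) bulk libraries, and the labels name no treatment. Each library held whole cortical tissue, so fewer cells of a type and less RNA per cell cannot be told apart. The labels give neither the part of Med13l that the allele lacks nor the litter of an embryo, and 3 pooled single-cell samples were not analysed here.

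Totals ran from 37909377 to 52992392 counts per library. Med13l itself (ENSMUSG00000018076, chromosome 5, 118560679 to 118765438) had 130.0, 156 and 163 CPM in the libraries labelled KO, 141, 156 and 160 CPM in those labelled Het and 145, 146 and 116 CPM in those labelled WT. It was not lower in KO than in WT (edgeR adjusted p = 0.901), so its count does not check the labels, and KO, Het and WT mean the libraries so labelled throughout. Markers of dorsal telencephalic radial glia, the progenitors of the cortex, were present in all libraries, with 10 genes summing to 2474 to 2784 CPM in KO, 1911 to 2742 CPM in Het and 2467 to 2539 CPM in WT. Het 1 stood apart on the first principal component, at 90.4, with the other libraries between -55.1 and 12.3. Its summed level of 12 thalamus and diencephalon markers was 1802 CPM, against 171 to 288 CPM in the other 8 libraries. KO 1 had the lowest summed level of 13 pan-neuronal markers, at 2430 CPM, against 3749 to 7167 CPM elsewhere. Het 1 was the lowest library for 14 of the 31 members and the highest for 5, and KO 1 was the highest for 15. The first letter of the sample descriptions is F for KO 3, Het 3 and WT 3 and D for the other libraries. The labels do not say what the letter marks, and differences within each letter are given beside the members that separated the genotypes.

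HIF binds a short core, ACGTG or GCGTG, and this core was searched on both strands of the 250 bases before a RefSeq transcript start of each member. The windows are RefSeq sequence on the mouse assembly GRCm38.p6, and 29 of the 31 members had one. Where several were listed, the window nearest the start of the principal transcript was taken. That start can lie inside the gene, as it does for Pfkm, Ldha, Aldoa and Hif1a. Windows are shown for Hk2, Hk1 and Pfkm, members of the first glycolytic steps whose KO and WT libraries did not overlap, though none passed the test. Every KO library stood above every WT library for 7.44% of all tested genes and 3.33% of members. It stood below for 7.56% and 10%. A window is also shown for Pgk1, an enzyme gene long used as a model of HIF control. Cores are in capitals, and CACGT or CACGC is a core read on the other strand. The Hk2 window is chr6:82774455-82774704 on the minus strand, that of Hk1 is chr10:62379909-62380158 on the minus strand, that of Pfkm is chr15:98108221-98108470 on the plus strand and that of Pgk1 is chrX:106186850-106187099 on the plus strand.
Hk2 promoter window: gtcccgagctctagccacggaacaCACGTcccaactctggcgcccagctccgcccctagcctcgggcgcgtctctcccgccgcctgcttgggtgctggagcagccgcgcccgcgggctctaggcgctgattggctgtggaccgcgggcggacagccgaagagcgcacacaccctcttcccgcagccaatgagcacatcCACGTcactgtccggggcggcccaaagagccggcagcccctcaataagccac
Hk1 promoter window: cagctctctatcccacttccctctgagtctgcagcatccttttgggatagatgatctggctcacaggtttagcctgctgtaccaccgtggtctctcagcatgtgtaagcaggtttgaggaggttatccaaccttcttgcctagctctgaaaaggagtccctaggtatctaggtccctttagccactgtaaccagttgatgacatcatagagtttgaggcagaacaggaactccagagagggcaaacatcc
Pfkm promoter window: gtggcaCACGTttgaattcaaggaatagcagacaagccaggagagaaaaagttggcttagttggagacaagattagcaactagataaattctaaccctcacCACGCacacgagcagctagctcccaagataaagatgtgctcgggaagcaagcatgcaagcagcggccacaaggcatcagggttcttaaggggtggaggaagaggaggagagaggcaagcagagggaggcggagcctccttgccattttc
Pgk1 promoter window: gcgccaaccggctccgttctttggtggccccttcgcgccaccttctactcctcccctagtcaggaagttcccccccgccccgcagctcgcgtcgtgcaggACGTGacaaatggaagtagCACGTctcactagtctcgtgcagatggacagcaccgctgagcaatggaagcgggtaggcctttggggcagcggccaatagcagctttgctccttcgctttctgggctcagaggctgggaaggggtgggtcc
In the windows shown, Hk2 and Pgk1 each held 2 ACGTG cores, Pfkm held 1 of each core and Hk1 held none. Hk1 had 2 listed windows and Pfkm 4, and these counts cover only the 1 shown of each. Which start was used in the cortex was not measured, so Hk1 is not shown to lack a core. The pair of Pgk1 cores lies 131 and 150 bases before the transcript start, and the Hk2 cores lie 52 and 226 bases before it.

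ACGTG was present in 15 of the 29 member windows, or 51.7%, against 16.6% of the windows of all 27025 genes in the RefSeq table and 20.9% of those of 12505 genes tested here. GCGTG was present in 16 of the 29, or 55.2%, against 28.2% of all windows and 43.3% of those of tested genes. At least 1 of the cores was in 23 of the 29, or 79.3%, against 38.6% and 54.3%. The shares over all genes and over tested genes use the first listed window of each gene. With the first listed window of the members, too, ACGTG was in 51.7%, GCGTG in 48.3% and either in 75.9%, a count added after the data had been seen. A palindromic CACGTG counts on both strands, and the cores can overlap. The median GC content was 62.8% in the member windows, 52.0% in all windows and 59.6% in those of tested genes, and its part in these shares was not tested. Part of the list was chosen as HIF targets, so these shares are no test of the list. A match is a run of letters and not a measured site, and binding of HIF was not measured.

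Levels were compared between genes as CPM per kb of each gene's principal transcript. Averaged over the 9 libraries, Gapdh stood highest at 897 CPM per kb, followed by Pkm at 511. Eno1 at 198 and Ldha at 193 CPM per kb came next and differed by less than the SD of either gene within each genotype. Tpi1, Pgk1, Ldhb, Pgam1 and Aldoa followed, between 168 and 106 CPM per kb. The enzymes that handle hexose phosphates came lower, with Gpi1 at 86.7, Pfkm at 36.3, Pfkl at 30.3, Hk1 at 23.0, Pfkp at 22.3 and Hk2 at 7.75 CPM per kb. Neighbours such as Egln1 at 23.2 and Hk1 at 23.0 CPM per kb could not be put in order.

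The HIF subunit gene Hif1a was at 42.3 CPM per kb. The transporter genes were scarcer, with Slc16a1 at 8.13, Slc2a3 at 5.94 and Slc16a3 at 1.35 CPM per kb. Eno2, the enolase of neurons, was at 7.35 CPM per kb. Adm, which encodes the vasodilator peptide adrenomedullin, had 0.891 CPM per kb. Car9, a carbonic anhydrase of the cell surface that is a common marker of hypoxic tissue, had 2 to 14 counts per library and 0.0745 CPM per kb. Vegfa ranked 7th at 145 CPM per kb because its principal transcript in the annotation has 654 bases, and it ranked 15th over merged exons, where Ddit4 led the HIF targets and Ldhb stood above Ldha. This order over merged exons was added after the data had been seen.

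**Figure D1:**
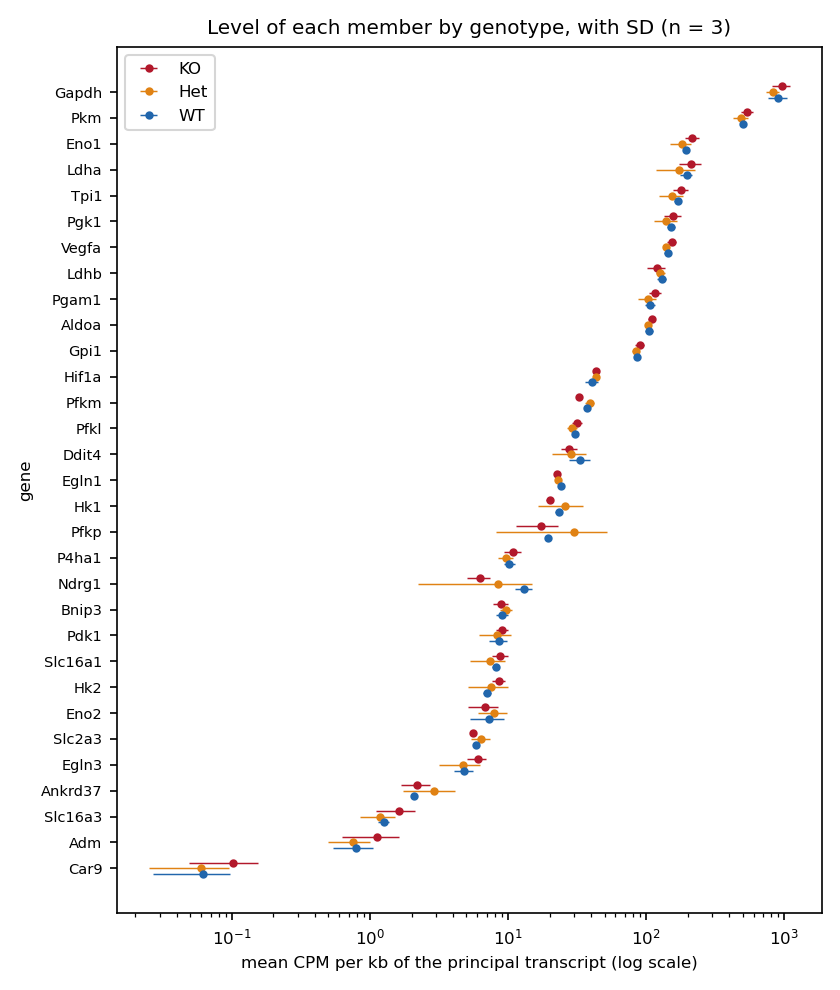
Mean level of each of the 31 members in CPM per kb of the principal transcript on a log axis, with the SD over 3 libraries, for KO, Het and WT cortex. Genotype means span from 0.0600 CPM per kb for Car9 in Het to 959.7 CPM per kb for Gapdh in KO, and the 3 genotypes lie close together for most genes, with wide Het bars for Ndrg1 and Pfkp.

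In KO cortex no tested glycolytic or hypoxia gene differed from WT past the test, which does not show that their levels were the same. The largest differences were lower Ndrg1, at 18.0 ± 3.31 CPM in KO and 38.0 ± 5.29 CPM in WT, and higher Adm, at 1.57 ± 0.697 CPM in KO and 1.11 ± 0.352 CPM in WT (SD, n = 3 each). Muscle-type phosphofructokinase, Pfkm, was at 93.7 ± 2.35 CPM in KO and 108 ± 2.97 CPM in WT, with no overlap. The hexokinases went apart, with Hk1 lower and Hk2 higher in every KO library than in any WT library, but neither passed the test.

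Of the 31 members 30 passed the filter on low counts and were tested with edgeR's quasi-likelihood test over 18844 genes, and Car9 was not tested. None of the 30 was called at an adjusted p under 0.05, where 0.00531% of all tested genes were called, which is 1 gene. DESeq2 and limma-voom called none of the members either, with 2 and 1 at an unadjusted p under 0.05, where 4.52% and 5.70% of all genes had one. Adjusted p ran from 0.858 to 0.990 over the members. At an unadjusted p under 0.05, no member was higher in KO, against 3.45% of all tested genes, and 1 member, Pfkm, or 3.33%, was lower, against 2.27%. For 1 member, Hk2, or 3.33%, every KO library stood above every WT library, against 7.44% of all tested genes. For 3 members, Hk1, Pfkm and Ndrg1, or 10%, every KO library stood below every WT library, against 7.56%. With 30 members each of these shares rests on 0 to 3 genes. When the KO and WT libraries were fitted alone, or without Het 1, 4 members had an unadjusted p under 0.05, where 8.92% and 9.48% of all genes had one in either direction, and none was called.

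Log2 fold changes of the members ran from -1.08 to 0.50, with 20 positive and 10 negative. Their median was 0.08, against 0.00072 over all tested genes, and it was -0.00619 without KO 1. For 26 of the 30 members the 95% interval lay within a 2-fold change either way, and for 17 it lay within 0.5 on the log2 scale. The members are taken below by their place in the pathway.

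**Figure D2:**
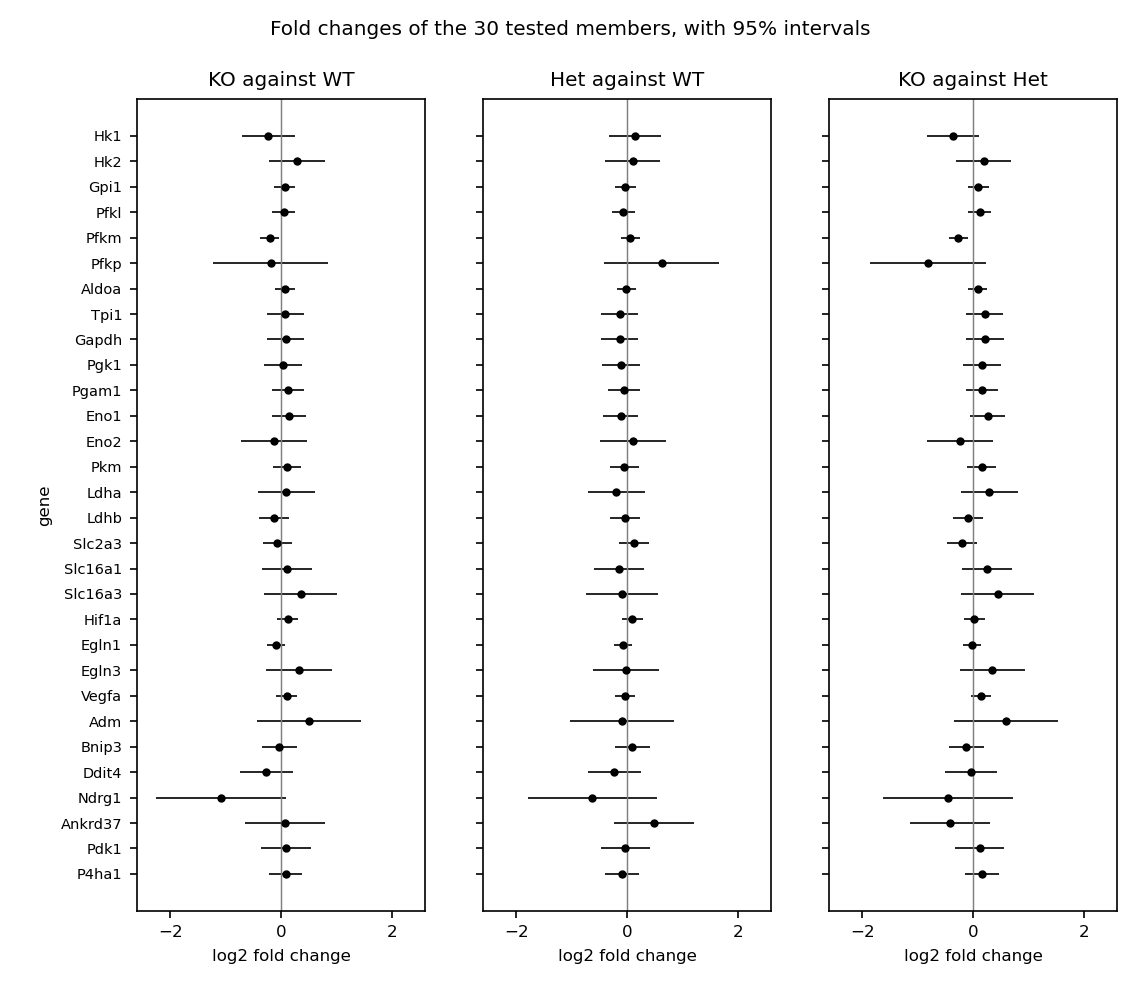
Log2 fold changes of the 30 tested members with 95% intervals, for KO against WT, Het against WT and KO against Het, in the order of the pathway. The Pfkm intervals for KO against WT and KO against Het do not reach 0, and the widest intervals belong to Ndrg1, Pfkp and Adm.

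Hexokinase commits glucose to the cell by phosphorylating it. Hk1 (ENSMUSG00000037012, chromosome 10, 62268855 to 62379908 on GRCm38), the form that brain uses most, had 72.2, 78.0 and 80.7 CPM in KO, 139, 72.7 and 85.5 CPM in Het and 90.0, 84.6 and 95.4 CPM in WT. All KO values lay below all WT values, and Het 1 stood above every other library. The log2 fold change of KO against WT was -0.23 (SE 0.21, edgeR adjusted p = 0.908), with -0.22 within letter D and -0.24 within letter F.

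Hk2 (ENSMUSG00000000628, chromosome 6, 82725025 to 82774454 on GRCm38), an inducible form and a target of HIF, had 53.1, 43.0 and 46.6 CPM in KO, 26.9, 53.6 and 44.5 CPM in Het and 39.2, 41.6 and 35.9 CPM in WT. All KO values lay above all WT values, while the Het libraries covered the whole range. The log2 fold change of KO against WT was 0.29 (SE 0.22, edgeR adjusted p = 0.894), with 0.24 within letter D and 0.38 within letter F. Per length, Hk1 made up 69.8% ± 3.31 of both hexokinases in KO, 75.8% ± 11.3 in Het and 76.8% ± 2.37 in WT (SD, n = 3 each). The Hk1 share was 66.1%, 72.2% and 71.2% in KO libraries and 76.7%, 74.4% and 79.2% in WT libraries. KO and WT could not overlap in this share, because Hk1 was lower and Hk2 higher in every KO library. It therefore adds nothing to the values of both genes. This share was looked at after the values of both genes had been seen and was not tested.

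Phosphofructokinase catalyses a main control step, and its subunits come from 3 genes. Pfkm (ENSMUSG00000033065, chromosome 15, 98092589 to 98132451 on GRCm38) had 91.1, 94.2 and 95.7 CPM in KO, 122, 109 and 106 CPM in Het and 105, 107 and 111 CPM in WT. Every KO library lay below every Het and every WT library. The log2 fold change of KO against WT was -0.20 (SE 0.074, 95% interval -0.37 to -0.03, edgeR adjusted p = 0.858), with -0.20 within letter D and -0.21 within letter F. Against Het it was -0.26 (SE 0.074, 95% interval -0.43 to -0.09, edgeR adjusted p = 0.607), with -0.32 within letter D and -0.14 within letter F.

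Pfkp, the platelet-type subunit that is abundant in brain, was named after its values had been seen. It had 44.5, 79.7 and 89.5 CPM in KO, 228, 58.0 and 87.7 CPM in Het and 83.5, 76.6 and 82.4 CPM in WT. The lowest value came from KO 1 and the highest from Het 1, with the other libraries between 58.0 and 89.5 CPM. These are the libraries with the lowest and the highest summed pan-neuronal markers, 2430 CPM in KO 1 and 7167 CPM in Het 1. They also had the highest and the lowest summed cycling-cell markers, 2870 and 1273 CPM. Het 1 had the highest thalamus and diencephalon sum, 1802 CPM, and the lowest intermediate progenitor and cortical neuron sum, 590 CPM. The part of any cell type in the Pfkp values was not tested. Pfkp also overlaps Pitrm1 in the annotation, so that its counts may hold reads of that gene. Pfkl, the liver-type subunit, averaged 118 ± 9.92 CPM in KO, 108 ± 9.12 CPM in Het and 113 ± 5.80 CPM in WT (SD, n = 3 each). Per length, the share of Pfkm among the 3 subunits was 41.1%, 39.9% and 39.2% in KO libraries and 42.8%, 42.7% and 43.0% in WT libraries, with Het libraries at 33.9%, 45.3% and 43.0%. This share, too, was chosen after the values had been seen.

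Gpi1, glucose phosphate isomerase, was the most abundant gene of these steps. It had 280, 256 and 243 CPM in KO, 238, 259 and 232 CPM in Het and 234, 254 and 256 CPM in WT. The genotypes overlapped, and the log2 fold change of KO against WT was 0.07 (SE 0.081). In the plot of single members the contrast between the tight Pfkm points and the scattered Pfkp points can be seen.

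**Figure D3:**
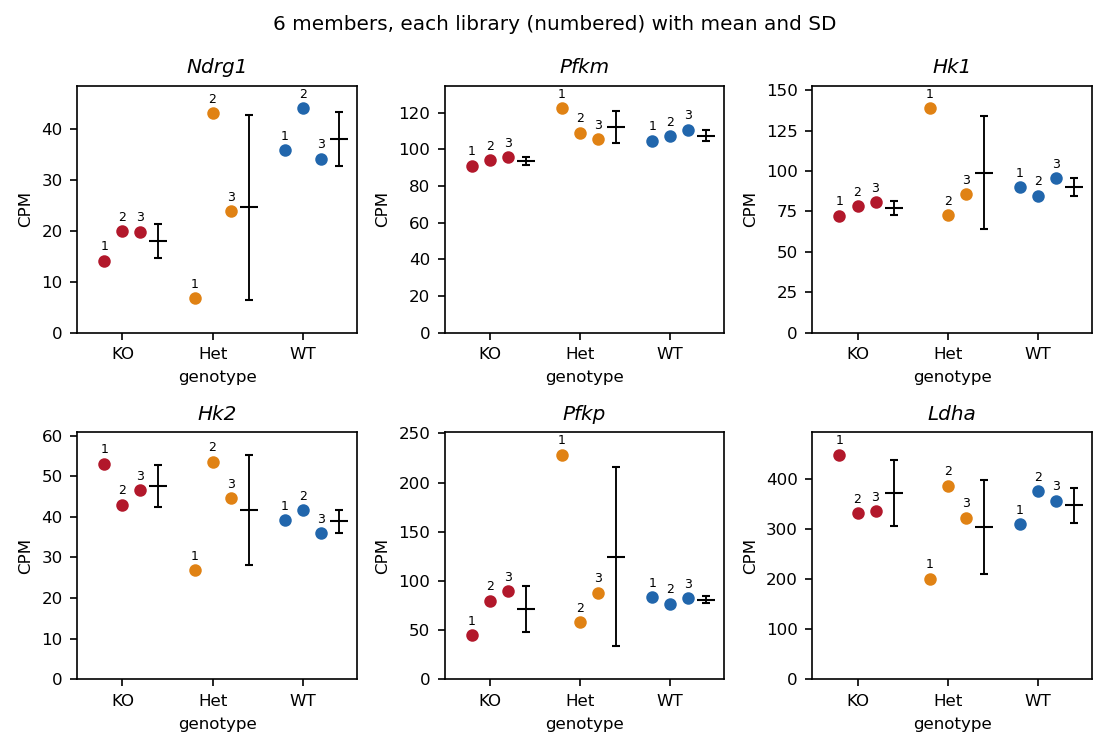
CPM of Ndrg1, Pfkm, Hk1, Hk2, Pfkp and Ldha in each KO, Het and WT library, numbered by replicate, with the mean and SD of 3 libraries beside them and each axis starting at 0. KO and WT do not overlap for Ndrg1, Pfkm, Hk1 and Hk2, and Het 1 is the highest or lowest library for all 6 genes.

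The enzymes from aldolase to pyruvate kinase harvest energy from the triose phosphates. Of their 8 genes, 7 had a positive and 1, Eno2, a negative log2 fold change of KO against WT, and none passed the test. The median was 0.08, against 0.00072 over all genes, and 5 of 8 were positive without KO 1, with a median of 0.0092. Gapdh, glyceraldehyde phosphate dehydrogenase, had 1501, 1456 and 1132 CPM in KO, 1120, 1310 and 1091 CPM in Het and 1234, 1503 and 1116 CPM in WT. The genotypes overlapped, and the log2 fold change of KO against WT was 0.09 (SE 0.15, edgeR adjusted p = 0.956).

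Pkm, pyruvate kinase, averaged 1318 ± 138 CPM in KO, 1185 ± 157 CPM in Het and 1222 ± 22.2 CPM in WT. Eno1, the general enolase, averaged 439 ± 51.2 CPM in KO, 366 ± 64.9 CPM in Het and 397 ± 19.9 CPM in WT. Tpi1, triosephosphate isomerase, averaged 288 ± 37.4 CPM in KO, 249 ± 48.4 CPM in Het and 273 ± 14.7 CPM in WT. For each of these genes KO 1 was the highest library and Het 1 the lowest. Pgk1, phosphoglycerate kinase, averaged 287 ± 39.6 CPM in KO, 256 ± 49.2 CPM in Het and 278 ± 17.2 CPM in WT. Pgam1, phosphoglycerate mutase, averaged 206 ± 20.7 CPM in KO, 183 ± 27.2 CPM in Het and 189 ± 15.8 CPM in WT. Aldoa, aldolase, averaged 166 ± 10.0 CPM in KO, 157 ± 3.57 CPM in Het and 158 ± 10.4 CPM in WT. Eno2 averaged 18.9 ± 4.59 CPM in KO, 22.2 ± 5.20 CPM in Het and 20.5 ± 5.58 CPM in WT (SD, n = 3 each for all 7 genes).

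Lactate dehydrogenase interconverts pyruvate and lactate. Ldha, whose subunit is known to favour making lactate and which is a classic HIF target, had 448, 331 and 336 CPM in KO, 201, 387 and 323 CPM in Het and 309, 376 and 357 CPM in WT. KO 1 was the highest and Het 1 the lowest library, and the log2 fold change of KO against WT was 0.10 (SE 0.23, edgeR adjusted p = 0.970). Ldhb averaged 155 ± 23.4 CPM in KO, 165 ± 12.5 CPM in Het and 169 ± 13.6 CPM in WT (SD, n = 3 each). Per length, Ldhb made up 36.3% ± 5.69 of both in KO, 43.4% ± 7.89 in Het and 39.9% ± 3.68 in WT (SD, n = 3 each), a share chosen after the values had been seen.

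Slc16a1 and Slc16a3 encode monocarboxylate transporters that carry lactate across the membrane, and Slc2a3 the glucose transporter of neurons. Slc16a1 had 45.0, 35.6 and 36.3 CPM in KO, 22.6, 40.6 and 35.3 CPM in Het and 36.4, 38.1 and 33.8 CPM in WT. KO 1 was again highest and Het 1 lowest, and the log2 fold change of KO against WT was 0.11 (SE 0.20). Slc2a3 had 21.8, 22.1 and 22.4 CPM in KO, 29.8, 23.4 and 22.7 CPM in Het and 22.3, 22.9 and 24.1 CPM in WT. All KO values lay just below all Het values, while KO and WT overlapped. Slc16a3 averaged 7.01 ± 2.25 CPM in KO, 5.14 ± 1.45 CPM in Het and 5.47 ± 0.525 CPM in WT (SD, n = 3 each).

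Hif1a had 203, 206 and 211 CPM in KO, 194, 208 and 208 CPM in Het and 190.3, 210.2 and 170.4 CPM in WT. Its groups overlapped, with a log2 fold change of KO against WT of 0.12 (SE 0.085, edgeR adjusted p = 0.893). HIF is controlled mainly through the stability of its protein, which these data do not measure. Egln1, the main oxygen sensor, averaged 81.4 ± 3.07 CPM in KO, 82.3 ± 3.88 CPM in Het and 87.0 ± 3.88 CPM in WT. Egln3, a sensor that HIF itself induces, averaged 16.0 ± 2.53 CPM in KO, 12.6 ± 4.19 CPM in Het and 12.8 ± 2.06 CPM in WT (SD, n = 3 each). The Egln3 log2 fold change of KO against WT was 0.33 (SE 0.26, edgeR adjusted p = 0.898).

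Ndrg1 (ENSMUSG00000005125, chromosome 15, 66929318 to 66969640 on GRCm38), a stress and hypoxia-induced gene needed for myelin upkeep in peripheral nerve, showed the largest difference of any member. It had 14.1, 19.9 and 19.8 CPM in KO, 6.80, 43.1 and 23.8 CPM in Het and 35.8, 44.0 and 34.2 CPM in WT. Every KO value lay below every WT value, and the Het libraries spread from below the KO range to within the WT range. The log2 fold change of KO against WT was -1.08 (SE 0.52, 95% interval -2.26 to 0.09, edgeR adjusted p = 0.858), with -1.24 within letter D and -0.79 within letter F. Het against WT it was -0.63 (SE 0.51, edgeR adjusted p = 0.999), and the Het mean of 24.6 ± 18.2 CPM (SD, n = 3) hides the scatter. The KO against WT value ran from -1.16 to -0.94 over all alternatives tried, and no alternative called it. Its lowest adjusted p over the alternatives was 0.371, in the edgeR fit of KO and WT libraries alone. The Het against WT value ran from -1.31 without Het 2 to -0.19 without Het 1, and the KO against Het value from -0.90 to 0.23, the last without Het 2.

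A list of 8 intermediate progenitor and cortical neuron markers was also lower in KO than in WT in every library. Its summed level was 1376 to 1821 CPM in KO, 590 to 2338 CPM in Het and 2031 to 2208 CPM in WT. Het 1 was the lowest library for both this sum and Ndrg1, and Het 2 was the highest Het library for both. Within KO the orders differed. The sum was 1415, 1376 and 1821 CPM in KO 1, KO 2 and KO 3, and Ndrg1 was 14.1, 19.9 and 19.8 CPM. All 8 markers had a negative log2 fold change of KO against WT, none passed the test, and none was at 0 in all libraries. The pan-neuronal and choroid plexus lists were also mostly negative in KO against WT. Of 13 pan-neuronal markers 12 were negative, and their sum was highest in Het 1, at 7167 CPM. All 6 choroid plexus markers were negative. Their sums were 214, 545 and 198 CPM in KO, 461, 632 and 372 CPM in Het and 178, 698 and 633 CPM in WT. KO 2, Het 2 and WT 2 were the highest libraries of their genotype for both the choroid plexus sum and Ndrg1. The part of any of these cells in the Ndrg1 values was not tested.

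The other HIF targets outside glycolysis did not separate KO from WT. Vegfa, the endothelial growth factor, had 108, 98.5 and 93.9 CPM in KO, 89.4, 94.0 and 89.8 CPM in Het and 96.6, 97.0 and 86.8 CPM in WT. Its log2 fold change of KO against WT was 0.10 (SE 0.080, edgeR adjusted p = 0.898). Adm, at 30 to 104 counts per library, had a log2 fold change of 0.50 (SE 0.41) with its highest value in KO 1. Ddit4, an inhibitor of mTOR signalling, averaged 48.9 ± 6.66 CPM in KO, 50.2 ± 13.9 CPM in Het and 58.7 ± 9.82 CPM in WT. Bnip3, a receptor for the removal of mitochondria, averaged 15.7 ± 1.92 CPM in KO, 17.0 ± 1.66 CPM in Het and 16.0 ± 1.67 CPM in WT.

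Pdk1, a kinase that keeps pyruvate out of the mitochondrial cycle, averaged 47.2 ± 5.05 CPM in KO, 43.4 ± 11.4 CPM in Het and 44.2 ± 6.70 CPM in WT. P4ha1, a subunit of the collagen prolyl hydroxylase, averaged 43.9 ± 6.14 CPM in KO, 39.0 ± 4.83 CPM in Het and 41.4 ± 3.71 CPM in WT. Ankrd37, an ankyrin repeat gene, averaged 2.03 ± 0.476 CPM in KO, 2.72 ± 1.12 CPM in Het and 1.94 ± 0.0397 CPM in WT (SD, n = 3 each, as for Ddit4, Bnip3, Pdk1 and P4ha1). Its highest value, 4.00 CPM, came from Het 1. Car9 had 0.134, 0.156 and 0.328 CPM in KO, 0.0457, 0.185 and 0.133 CPM in Het and 0.180, 0.151 and 0.0448 CPM in WT, too few counts for a comparison.

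**Figure D4:**
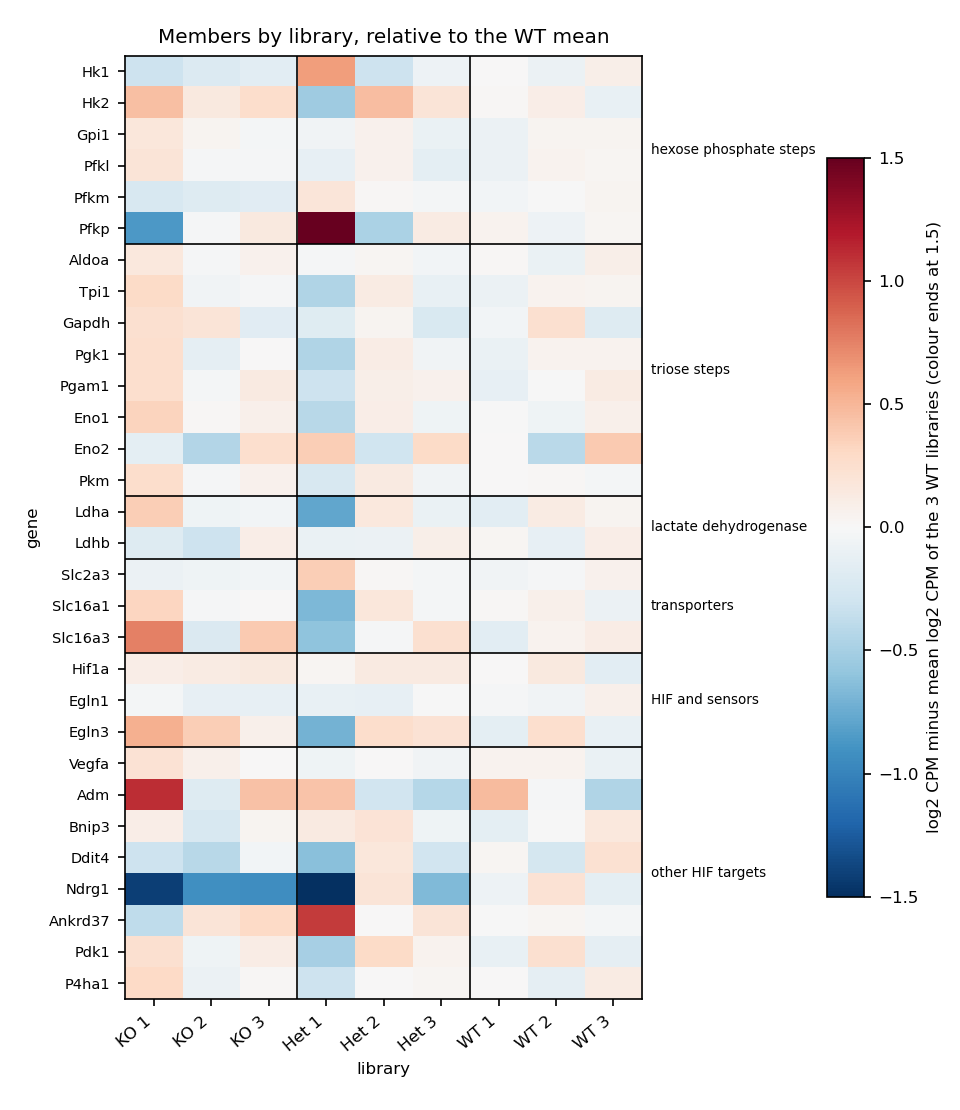
Log2 CPM of the 30 tested members in each library minus the mean log2 CPM of the 3 WT libraries, grouped by pathway step, with the colour ending at 1.5. KO 1 is red and Het 1 blue for most triose steps and for Ldha, Pfkp has these colours the other way round, and Ndrg1 is blue in all 3 KO libraries.

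In Het cortex, too, no tested member differed from WT past the test. Pfkp had the largest positive value, a log2 fold change of 0.63 (SE 0.46), and Ndrg1 the largest negative one. Without Het 1 the Pfkp value was -0.15 and the Ndrg1 value -0.19. None of the 30 members was called in Het against WT by edgeR, where 0% of all tested genes were called, and every member had an adjusted p of 0.999. At an unadjusted p under 0.05, no member was higher in Het, against 0.95% of all tested genes, and none was lower, against 0.61%. For no member did every Het library stand above every WT library, against 2.46% of all genes, or below every one, against 2.72%.

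The median over the members was -0.04 in Het against WT, with 9 positive and 21 negative, against 0.0021 over all tested genes. Of the triose steps 7 of 8 were negative, and 3 of 8 without Het 1. Without Het 1 the median over all members was -0.00107, and without Het 2 it was -0.12. For 26 members the 95% interval lay within a 2-fold change. The KO and Het comparisons share the WT libraries, and KO against Het uses libraries of both, so their values for a gene are not independent.

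Between KO and Het cortex the member with the smallest p was Pfkm, whose values are given above, and the largest fold difference was that of Pfkp. Slc2a3, the other member with all KO libraries below all Het libraries, had a log2 fold change of -0.19 (SE 0.12, edgeR adjusted p = 0.613), with -0.27 within letter D and -0.016 within letter F. None of the 30 members was called by edgeR, against 0.00531% of all tested genes, and adjusted p ran from 0.607 to 0.957. At an unadjusted p under 0.05, no member was higher in KO, against 4.83% of all tested genes, and 1, Pfkm, or 3.33%, was lower, against 2.91%. For no member did every KO library stand above every Het library, against 6.05% of all genes, and for 2, or 6.67%, every KO library stood below, against 5.05%.

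The median over the members was 0.12 in KO against Het, with 19 positive and 11 negative, against -0.0062 over all tested genes. It was 0.0226 without Het 1, 0.0356 without KO 1, 0.207 without Het 2 and -0.0367 without both Het 1 and KO 1. Of the triose steps 7 of 8 were positive, and 3 of 8 without both. The Hk1 value of -0.36 was 0.00048 without Het 1. Pfkp had the most negative value, -0.81 (SE 0.46), and Adm the most positive, 0.59 (SE 0.41). For 25 members the 95% interval lay within a 2-fold change.

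Several members have near-identical copies elsewhere in the genome. Gene sequences at least 95% identical over at least 200 bases were found outside the locus for 10 of the 31 members. Counts of 66 such copies of Gapdh came to 39.8% of the counts of Gapdh itself. The share was 28.5% for Pgam1, with 1 copy, 25.5% for Eno1, with 4 copies, 14.9% for Pgk1, with 4 copies, and 8.64% for Ldhb, with 1 copy. It was 3.97% for Bnip3 and under 1% for Pkm, Gpi1, Ldha and Tpi1, at 0.944%, 0.840%, 0.293% and 0.197%. How reads that match a gene and its copy were shared out is not given in the sources used here, so the levels of these genes are uncertain.

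The most counted copy of Gapdh, Gm13394, had 281, 33.1 and 466 CPM in KO, 24.6, 257 and 459 CPM in Het and 242, 33.3 and 460 CPM in WT. Each genotype thus held a low, a middle and a high library. The 3 libraries of letter F were the highest, and the level did not follow the genotype. The copy of Ldhb, Gm5514, had 11.6, 1.35 and 26.7 CPM in KO, 12.9, 13.1 and 24.1 CPM in Het and 12.3, 0.717 and 27.1 CPM in WT. It too was highest in the 3 libraries of letter F and lowest in WT 2 and KO 2. The most counted copy of Eno1, Gm4735, had 105, 37.7 and 40.2 CPM in KO, 60.8, 40.6 and 37.0 CPM in Het and 40.3, 81.3 and 38.3 CPM in WT. That the 3 copies show such levels was seen in the data and not sought beforehand.

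The most counted copies of the other genes showed no such steps between libraries. Pgam1-ps2 had 62.2, 58.5 and 60.0 CPM in KO, 42.3, 55.9 and 55.9 CPM in Het and 49.9, 54.6 and 56.2 CPM in WT. Pgk1-rs7 had 26.5, 18.1 and 21.7 CPM in KO, 16.2, 21.04 and 20.6 CPM in Het and 18.5, 21.4 and 21.7 CPM in WT. Both were lowest in Het 1, as were their parents. Gm6560, a copy of Pkm, averaged 12.3 ± 1.84 CPM in KO, 10.9 ± 2.90 CPM in Het and 11.8 ± 0.923 CPM in WT (SD, n = 3 each). Gm1840 of Gpi1, Ldha-ps2, Tpi-rs11 and Gm6532 of Bnip3 were below 3 CPM in each library.

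Gapdh and its copies together had 2089, 1736 and 1901 CPM in KO, 1318, 1833 and 1839 CPM in Het and 1734, 1777 and 1873 CPM in WT. The SD of this sum was 177 CPM in KO, 299 CPM in Het and 70.8 CPM in WT, against 201, 119 and 198 CPM for Gapdh alone in the same order (n = 3 each). Adding copies gave a larger WT SD for Eno1, 30.7 against 19.9 CPM, and for Ldhb, 26.6 against 13.6 CPM. With copies summed into their member, no member was called by edgeR, and the median over the members in KO against WT was 0.0730, against 0.0751 with the members alone. This change was added after the data had been seen.

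**Figure D5:**
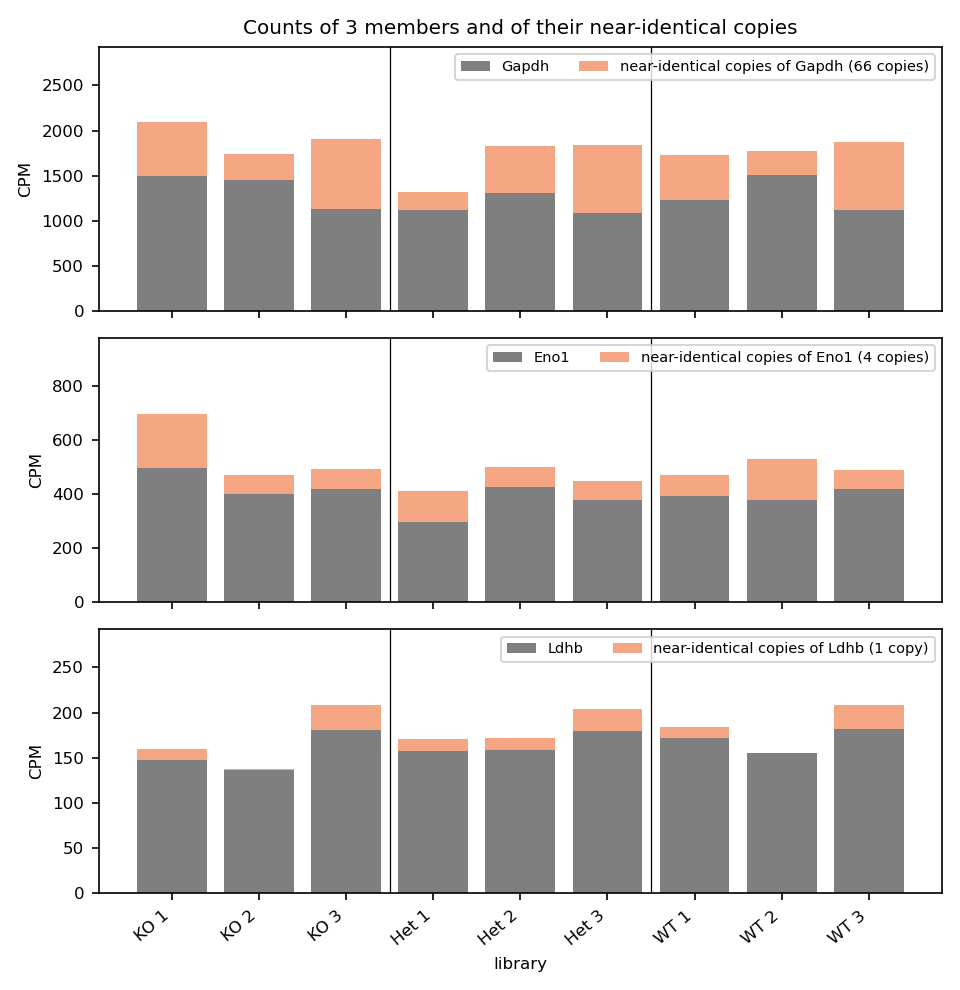
CPM of Gapdh, Eno1 and Ldhb (grey) and of their near-identical copies stacked on top (orange) in each KO, Het and WT library, with 66, 4 and 1 copies summed. The orange part of Gapdh and of Ldhb differs between libraries of the same genotype and is tallest in KO 3, Het 3 and WT 3, while that of Eno1 is tallest in KO 1.

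Other genes of the pathway were read from lists beside the members. Of 34 tested HIF targets that are not members, none was called by edgeR in KO against WT, and 24 had a positive log2 fold change, with a median of 0.20. At an unadjusted p under 0.05, 9 were higher in KO and 1 was lower, against 3.45% and 2.27% of all tested genes. In KO against Het 9 were higher and 2 lower, against 4.83% and 2.91%. In Het against WT none reached this level in either direction, and the median was -0.04. Without KO 1, 2 genes were higher and 1 lower in KO against WT, with a median of 0.06, where 1.15% of all genes were higher. Also in KO against WT, 5 were higher without KO 2, 4 without WT 2 and 4 without WT 3, where 1.44%, 2.72% and 1.53% of all genes were higher. Without KO 3, Het 1 and WT 1 in turn, 11, 10 and 6 were higher, where 6.15%, 5.15% and 3.15% of all genes were. Without Het 2 or Het 3, 7 were higher, where 3.31% and 2.9% of all genes were. In KO against Het, 4 were higher and 0 lower without KO 1, where 1.69% of all genes were higher. Without Het 2, 11 were higher and 2 lower in KO against Het, where 6.47% of all genes were higher. Without KO 1 and Het 1, 6 were higher and 1 lower in KO against WT, against 2.44% of all genes higher, and none was either in KO against Het, against 1.34% higher.

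Among these targets, Loxl2 and Lox encode lysyl oxidases that cross-link collagen. Loxl2 had 42.8, 38.6 and 24.3 CPM in KO, 13.6, 19.0 and 22.5 CPM in Het and 22.4, 23.1 and 15.4 CPM in WT. Lox had 65.4, 52.96 and 34.6 CPM in KO, 13.9, 34.4 and 27.1 CPM in Het and 32.3, 31.3 and 20.003 CPM in WT. In both genes KO 3 was the lowest KO library and yet above all Het and WT libraries.

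Plod2, a collagen lysyl hydroxylase, had 49.5, 42.9 and 36.2 CPM in KO, 26.8, 33.1 and 33.2 CPM in Het and 31.7, 34.8 and 31.3 CPM in WT. Gbe1, the glycogen branching enzyme, had 20.1, 18.7 and 14.7 CPM in KO, 12.1, 12.9 and 12.7 CPM in Het and 14.4, 12.1 and 11.2 CPM in WT. Angptl4, a secreted inhibitor of lipoprotein lipase, had 19.5, 19.7 and 11.0 CPM in KO, 6.42, 10.4 and 9.96 CPM in Het and 10.4, 8.87 and 6.74 CPM in WT. For these 3 genes, too, KO 3 was the lowest KO library and above every Het and WT library.

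Hmox1, a heme oxygenase, had 19.0, 15.9 and 10.6 CPM in KO, 8.47, 10.8 and 10.1 CPM in Het and 10.8, 10.6 and 10.9 CPM in WT. Mxi1, an antagonist of Myc, was the exception in direction, with 59.2, 66.9 and 65.9 CPM in KO, 75.8, 71.7 and 70.0 CPM in Het and 76.8, 71.9 and 77.1 CPM in WT. Log2 fold changes of KO against WT were 0.79 (SE 0.26) for Loxl2, 0.87 (SE 0.35) for Lox, 0.40 (SE 0.13) for Plod2, 0.51 (SE 0.15) for Gbe1, 0.95 (SE 0.28) for Angptl4, 0.49 (SE 0.21) for Hmox1 and -0.23 (SE 0.077) for Mxi1. Each of the 7 had an edgeR adjusted p of 0.858, so none passed.

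Marker lists of cell types were read beside these targets. Meningeal fibroblast markers, 12 genes, summed to 2312, 2064 and 1038 CPM in KO, 640, 982 and 849 CPM in Het and 1208, 1045 and 652 CPM in WT. KO 3 lay within the WT range of this sum. In KO, Lox, Loxl2, Plod2, Gbe1 and Hmox1 stood in the order of the sum, while Angptl4 was highest in KO 2 and Mxi1 lowest in KO 1. Among Het and among WT libraries Lox kept the order of the sum and Loxl2 did not. All 12 markers had a positive log2 fold change of KO against WT, 5 of them at an unadjusted p under 0.05, none was called, and none was at 0 in all libraries. The endothelial and mural list summed to 535 to 1004 CPM in KO, 440 to 540 CPM in Het and 418 to 689 CPM in WT. Of its 16 markers 15 were positive, 8 of them at an unadjusted p under 0.05, and none was at 0 in all libraries. Flt1 is both in this list and among the HIF targets above. Erythroid markers, 12 genes, summed to 3115 to 4647 CPM in KO, 2616 to 2944 CPM in Het and 2118 to 3033 CPM in WT, so that KO lay above both, with 11 of 12 positive in KO against WT and 7 at an unadjusted p under 0.05. Microglia and macrophage markers, 12 genes, summed to 78.4 to 136 CPM in KO, 67.4 to 75.1 CPM in Het and 63.0 to 94.7 CPM in WT, with 10 of 12 positive. Markers of cycling cells, 8 genes, summed to 2525 to 2870 CPM in KO, 1273 to 2625 CPM in Het and 2009 to 2365 CPM in WT, with 8 of 8 positive. No microglia, macrophage or cycling marker had an unadjusted p under 0.05 in KO against WT. Of all tested genes 3.45% were higher in KO at this level. None of these markers was called in KO against WT, and none was at 0 in all libraries. The part of any of these cells in the values of the HIF targets and of the members was not tested.

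The remaining lists held no called gene in any comparison, and the genes named from them next were chosen after their values were seen. Of 13 tested further glycolytic isozymes and regulators, 5 were positive and 8 negative in KO against WT, with a median of -0.07. Of them 1, Pfkfb4, which sets the level of a phosphofructokinase activator, was lower in KO against Het at an unadjusted edgeR p under 0.05. Of all tested genes 2.91% were. Pfkfb4 was at 16.0 ± 2.50 CPM in KO and 22.4 ± 6.19 CPM in Het (SD, n = 3 each). Of 11 further HIF pathway components, 4 were positive and 7 negative in KO against WT. At an unadjusted edgeR p under 0.05, 1 was lower and none higher, against 2.27% and 3.45% of all tested genes. Vhl, which marks HIF alpha subunits for destruction, was at 51.5 ± 4.12 CPM in KO and 59.4 ± 4.05 CPM in WT (SD, n = 3 each). Of 12 genes around pyruvate dehydrogenase, 6 were positive in KO against WT. Here too 1 was lower and none higher at that level, against the same shares of all tested genes. Mpc1, a mitochondrial pyruvate carrier, was at 17.7 ± 0.679 CPM in KO and 21.5 ± 1.89 CPM in WT (SD, n = 3 each).

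Slc2a10, a hexose transporter, had 4.19, 4.29 and 2.88 CPM in KO, 2.19, 1.62 and 2.66 CPM in Het and 2.76, 3.10 and 2.82 CPM in WT. It stood above Het in every KO library, with a log2 fold change of 0.81 (SE 0.25, edgeR adjusted p = 0.607), and overlapped WT. Of 8 genes of the pentose phosphate pathway 5 were positive in KO against WT, and of 5 genes of the serine branch 4 were positive, with medians of 0.05 and 0.18. Of the 11 tested further hexose, lactate and pyruvate transporters 6 were positive, with a median of 0.05.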

How the data were processed

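Bulk RNA-seq of 9 cortex libraries at embryonic day 13.5, 3 each for KO, Het and WT, was used. The authors deposited 1 table of whole-number read counts per Ensembl gene, not normalised, with rows of 0 kept. Per the submitters' processing notes, the series' tools include STAR (listed as 25.2b) and StringTie 2.2.1, and the build was mm10. Which tool made the counts, its annotation, its use of strand and its handling of multi-mapping reads are not given in the sources used here, so counts of overlapping genes and of near-identical copies are uncertain. Symbols and positions came from GENCODE M21 on GRCm38 and matched 55154 of 55335 IDs. Aldoa has 2 IDs, of which ENSMUSG00000030695 was used.

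The test was the quasi-likelihood test of edgeR 4.0.16 (R 4.3.3), using TMM factors, filterByExpr by genotype, robust dispersions, no covariate and all 9 libraries in 1 fit. The filter kept 18844 genes, holding 99.95% of the counts, and 24220 genes had no count. The biological coefficient of variation common to all genes was 28.2%. Adjustment of p-values was by Benjamini-Hochberg over all tested genes of a comparison, with a threshold of 0.05. CPM used TMM-scaled library sizes, and means are ± SD with n = 3. Intervals are at 95%. The labels do not say that the libraries of a genotype came from separate litters, so p-values measure the spread between these samples. Library pairs differed by more than counting noise.

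Near-identical copies were found with minimap2 2.31. Alternatives were other scaling factors, filters and thresholds, DESeq2 1.42.0, limma 3.58.1 with voom, replicate and letter blocks, fits of 2 groups and leaving out each library. Values per library are given for members with an unadjusted p under 0.05 or with genotypes that do not overlap, for the most abundant member of each of 6 pathway steps, for members that failed the filter, for at most 8 other pathway genes with the smallest p, and for the most counted copy of a member. Other members are given by mean and SD. The members and lists were chosen with earlier results of these data known. Of the listed symbols Ero1a, read as Ero1l, and Ahsp matched no ID.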

Additional observations from a re-analysis of the deposited data

How the results depend on the processing

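No member was called under any of the 21 alternatives in any comparison, by edgeR, DESeq2 or limma-voom, nor at an adjusted p under 0.1. The smallest adjusted p of any member over all of them was 0.256, for Pfkm in KO against Het. At an unadjusted p under 0.05, DESeq2 had 2 members for KO against WT, 0 for Het against WT and 1 for KO against Het, while edgeR had 1, 0 and 1. The shares of all genes were 4.52%, 1.46% and 6.39% by DESeq2 and 5.72%, 1.56% and 7.74% by edgeR. In the same order of comparisons DESeq2 called 17, 1 and 24 of all genes, limma-voom 1, 0 and 0, and edgeR 1, 0 and 1. The median over the members was -0.0367 in KO against Het without Het 1 and KO 1, an alternative added after the data had been seen, against 0.119 with all libraries. Leaving out 1 library moved that median between 0.0226 and 0.207, the KO against WT median between -0.00619 and 0.113, and the Het against WT median between -0.12 and -0.00107. Of 1890 values of single members under an alternative, none of them called, 88 had the other sign, and 40 of the 90 member and comparison pairs kept their sign throughout. Deviations of same-numbered libraries from their group means correlated between -0.27 and 0.269, and 5 of 9 libraries correlated best with their own number. For replicate 3, the libraries of letter F, the correlations were 0.269 (KO and Het), 0.152 (KO and WT) and 0.0824 (Het and WT). Those of replicates 1 and 2 had both signs. These values do not settle whether replicate numbers pair the libraries. With a replicate block the members' medians were 0.0796, -0.0425 and 0.128, and edgeR then called 0 genes in each, against 1, 0 and 1. Car9 had too few counts to test. Intervals of Ndrg1, Pfkp, Adm, Slc16a3 and Ankrd37 reached past a 2-fold change in at least 1 comparison, and the cause was not tested.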
